A study of Homo sapiens with 6 samples.

Results

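The tricarboxylic acid (TCA) cycle, the entry of pyruvate into it and the use of glutamate and glutamine around it were described through 36 genes, chosen by gene symbol. All 36 symbols were found among the 26255 gene symbols measured. They comprised 5 subunits of the pyruvate dehydrogenase complex, 6 kinases and phosphatases of that complex, 12 genes of the mitochondrial cycle, 6 cytosolic partners, malic enzymes and citrate lyase, 2 genes of anaplerosis and cataplerosis, and 5 genes of glutamate and glutamine. Expression was measured by mRNA sequencing in HCT116, an established human colorectal carcinoma cell line. The compared groups were 3 ZsGreen-positive libraries and 3 ZsGreen-negative libraries of this line, from a study of cells transduced with an ornithine decarboxylase degron. In such a reporter the fluorescent protein ZsGreen is fused to the degron, a signal for proteasomal degradation, and the series presents the transduced cells as cancer stem cell models. The promoter driving the reporter, the time in culture, the number of clones and any preparation batch are not given in the labels used here, so the groups and any batch that coincided with them cannot be told apart. Separate cultures are not named either, so each p-value is set against the spread among the libraries alone, and that spread may be technical.

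In outline, the pyruvate dehydrogenase complex turns pyruvate into acetyl-CoA, which citrate synthase joins to oxaloacetate, and the mitochondrial cycle then oxidises citrate back to oxaloacetate while reducing NAD+. Citrate, malate and isocitrate also have cytosolic routes, in which ATP citrate lyase supplies acetyl-CoA for lipid synthesis and the NADP-dependent isocitrate dehydrogenase and malic enzyme supply NADPH. Glutamine refills the cycle through glutamate and 2-oxoglutarate, a route on which many cultured carcinoma cells draw.

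The 6 libraries differed in more than these genes. The deposited unit was FPKM, sequenced fragments scaled to transcript length and library depth, and 12213 genes with a mean of at least 1 FPKM were tested with limma on log2(FPKM + 1), a scale on which changes of low genes are understated. An adjusted p (Benjamini-Hochberg over all tested genes) below 0.05 counted as passing. Of all tested genes 59.4% passed, 29.4% as higher and 30.0% as lower in ZsGreen-positive cells. With a ratio of the group means of at least 1.5 required as well, 21.8% were higher and 21.2% lower, and in 67.6% no value of one group lay within the range of the other. The depth, estimated from the smallest steps between low FPKM values, was 12100000 to 13500000 fragments in ZsGreen-positive and 9340000 to 9600000 fragments in ZsGreen-negative libraries. In ZsGreen-positive libraries 2 and 3 the step was tied to that of ZsGreen-positive library 1. Their depths, and their shares of low genes at 1 fragment, are therefore not independent of that library. A single fragment on 1000 nucleotides was then worth 0.0740 to 0.0825 FPKM in ZsGreen-positive and 0.104 to 0.107 FPKM in ZsGreen-negative libraries. Few low genes stood at 1 fragment in ZsGreen-positive libraries 2 and 3 (5.36% and 10%), against 25.6% in ZsGreen-positive library 1 and 27.5% to 32.4% in the ZsGreen-negative libraries. Summed FPKM of 7 epithelial markers was 3139 to 3572 in ZsGreen-positive and 4238 to 4305 in ZsGreen-negative libraries, most of it from KRT8, KRT18 and KRT19. The single markers did not move together. KRT8, KRT18 and CDH1 were lower in ZsGreen-positive cells, CDH1 at a mean of 17.4 against 49.8 FPKM, while EPCAM was higher and KRT19 did not pass. The intestinal marker CDX1 was listed at 0 in all 6 libraries and VIL1 at no more than 0.0377 FPKM. Fibroblast markers (6 genes) summed to 0.731 to 1.19 FPKM in ZsGreen-positive and 2.35 to 2.50 FPKM in ZsGreen-negative libraries, leukocyte markers (5 genes) to 0 to 1.53 and 1.64 to 2.22 FPKM, and endothelial markers (3 genes) to 0.0638 to 0.171 and 0.0578 to 0.126 FPKM, in the same order of groups. COL1A2, DCN, LUM and CD3E were listed at 0 in all 6 libraries. The part of the marker differences in the results was not tested. Because these were bulk samples, a smaller number of cells expressing a gene and less of its RNA per cell cannot be told apart.

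Most of the 36 genes were higher in ZsGreen-positive cells, while the cytosolic NADPH-forming enzymes ME1 and IDH1 and the citrate lyase ACLY were lower. In all, 34 of the 36 reached the filter and were tested, and PDK4 and ME3 did not. Of the 34, 19 were higher and 8 lower in ZsGreen-positive cells and 7 did not pass, which is 55.9% higher and 23.5% lower, against 29.4% and 30.0% of all tested genes. At least 1.5-fold apart were 11 of the higher and 4 of the lower genes, beside 21.8% higher and 21.2% lower among all tested genes. Counts of the smaller groups below are likewise to be read beside the shares of all tested genes. The median log2 fold change of the 34 was 0.47, beside 0.0040 over all tested genes. In 30 of the 34 the ZsGreen-positive and ZsGreen-negative values did not overlap, beside 67.6% of all tested genes. Scaling mattered for the smaller decreases: with each library rescaled to the same FPKM sum, the median over all genes moved to 0.14, 62.1% of all passing genes were higher instead of 49.5%, and 21 of the 34 were higher and 3 lower. The 3 were ME1, IDH1 and ACLY.

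**Figure D1:**
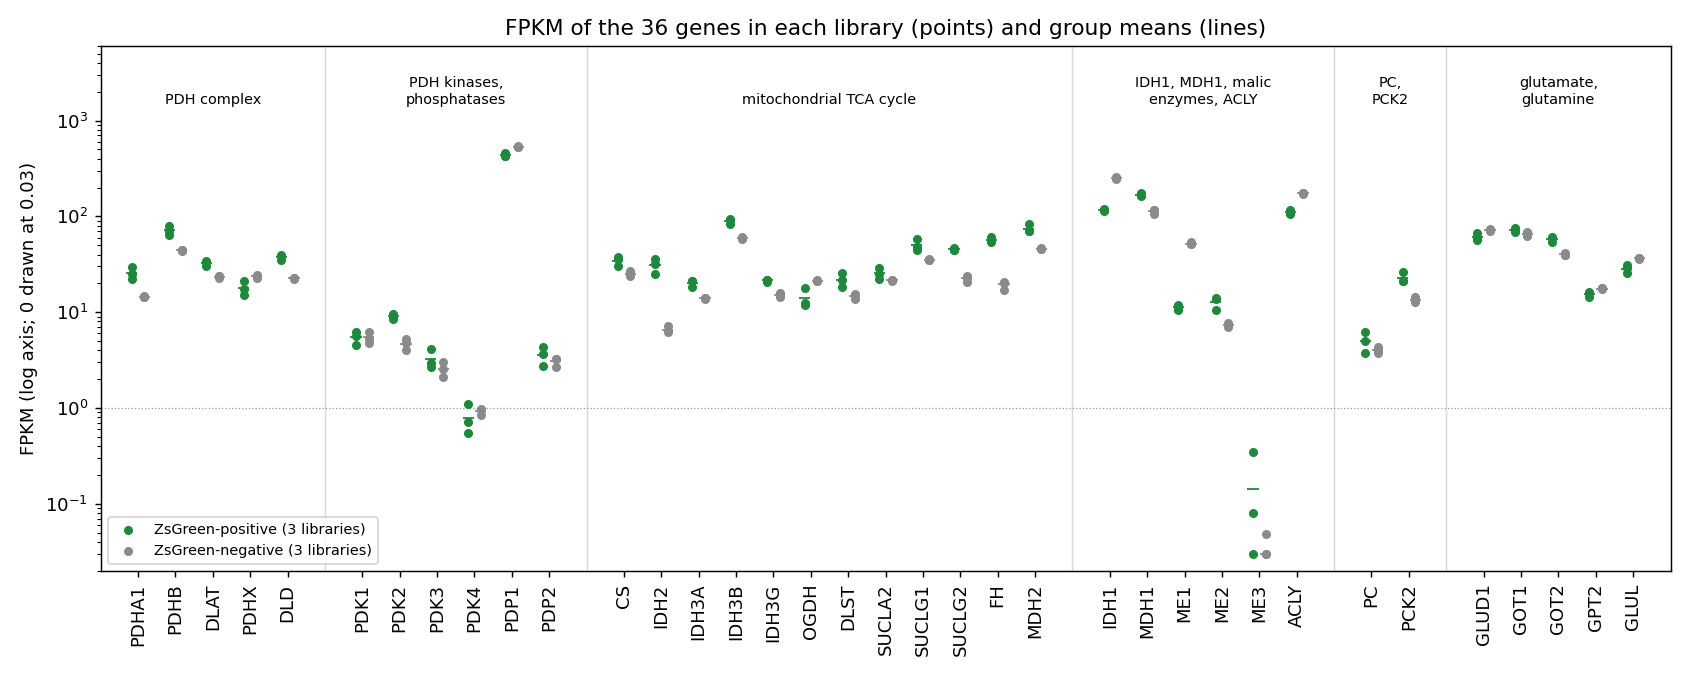
FPKM of the 36 genes (log axis) in each of the 3 ZsGreen-positive libraries (green points) and 3 ZsGreen-negative libraries (grey points), with short lines for the group means and a dotted line at the filter of 1 FPKM. IDH2, FH and SUCLG2 lie higher and ME1, IDH1 and ACLY lower in ZsGreen-positive cells, without overlap, and PDP1 is listed highest in all 6 libraries, a level that may include fragments of another transcript and could not be checked.

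**Figure D2:**
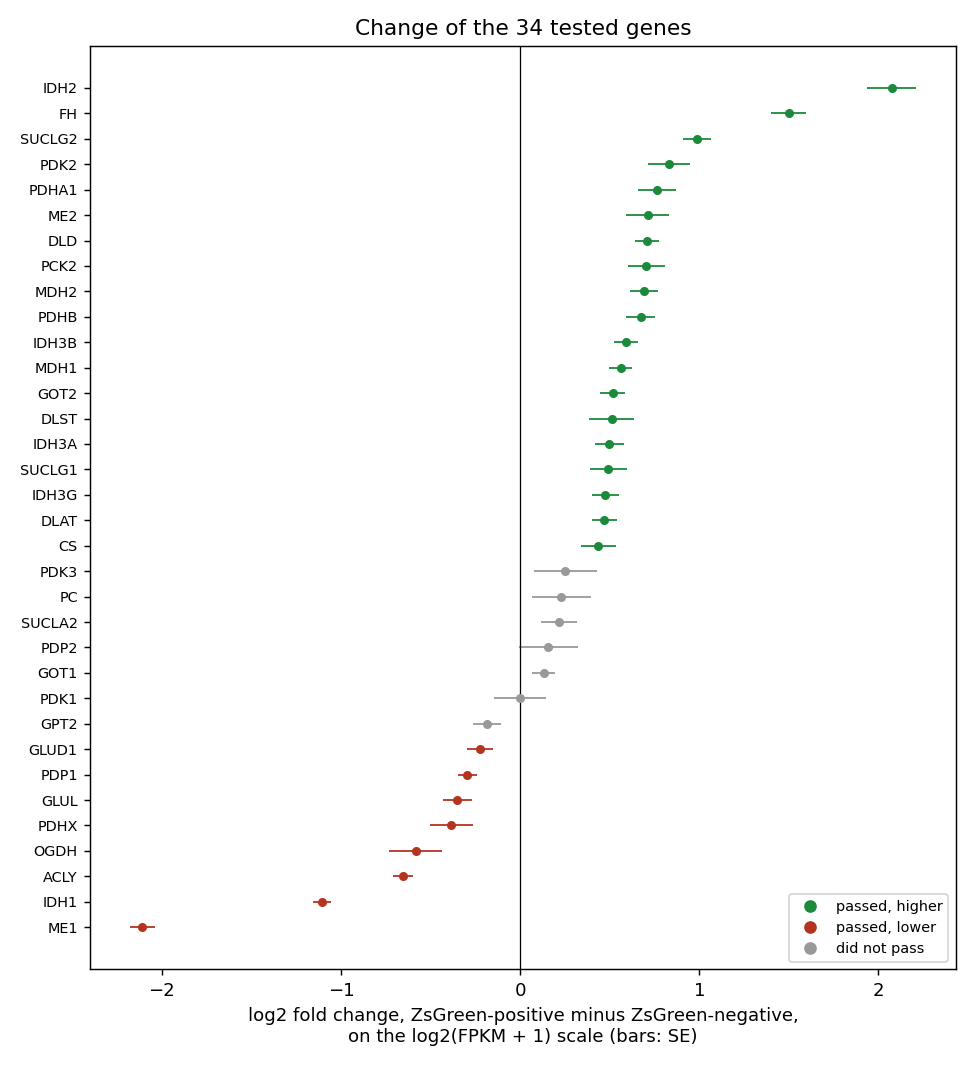
Log2 fold change of the 34 tested genes, ZsGreen-positive minus ZsGreen-negative, on the log2(FPKM + 1) scale, with bars for the standard error (SE). The 19 higher genes extend up to IDH2 at 2.07 and the 8 lower genes down to ME1 at -2.11.

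Of the pyruvate dehydrogenase complex 4 of 5 subunits were higher in ZsGreen-positive cells and the fifth, PDHX, was lower, with a median log2 fold change of 0.67. PDHA1 and PDHB encode the alpha and beta subunits of the component that decarboxylates pyruvate. PDHA1 stood at 29.4, 25.0 and 22.2 FPKM in ZsGreen-positive libraries 1 to 3, against 14.8, 14.4 and 14.4 FPKM in ZsGreen-negative libraries 1 to 3. The ZsGreen-positive values spread widely yet all lay above the ZsGreen-negative ones, and the log2 fold change was 0.76 ± 0.11 (SE, adjusted p = 0.000659). PDHB was measured at 79.4, 64.2 and 70.9 FPKM in ZsGreen-positive cells and at 44.0, 44.1 and 44.9 FPKM in ZsGreen-negative cells. Again no values overlapped, with a log2 fold change of 0.67 ± 0.083 (SE, adjusted p = 0.000363). DLD, the dihydrolipoyl dehydrogenase shared with the 2-oxoglutarate dehydrogenase complex, had 39.4, 35.3 and 38.4 FPKM in ZsGreen-positive and 22.3, 23.0 and 22.6 FPKM in ZsGreen-negative libraries. Its groups were well apart (0.71 ± 0.068 on the log2 scale, adjusted p = 0.000102). DLAT, the acetyltransferase that forms the core of the complex, averaged 32.7 ± 1.79 FPKM in ZsGreen-positive and 23.3 ± 0.625 FPKM in ZsGreen-negative cells (SD, n = 3 each), a log2 fold change of 0.47 (adjusted p = 0.000852, limma).

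PDHX, the protein that anchors the dihydrolipoyl dehydrogenase in the complex, went the other way. It had 17.4, 21.4 and 15.2 FPKM in ZsGreen-positive cells, against 22.9, 24.7 and 23.2 FPKM in ZsGreen-negative cells. The groups did not overlap, but the log2 fold change of -0.38 ± 0.12 passed narrowly (adjusted p = 0.0283). The call was lost without ZsGreen-positive library 1 (adjusted p = 0.0655), without ZsGreen-positive library 3 (0.0575) and without ZsGreen-negative library 1, 2 or 3 (0.0643, 0.0946 and 0.0713), and under rescaling to a common FPKM sum (0.288).

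Of the enzymes that switch the complex off and on, 1 of 5 tested genes was higher, 1 lower and 3 did not pass. The pyruvate dehydrogenase kinases (PDK1 to PDK4) inactivate the complex by phosphorylation, and the phosphatases PDP1 and PDP2 reverse it. PDK2 had 9.58, 8.40 and 9.16 FPKM in ZsGreen-positive libraries and 3.99, 4.81 and 5.2 FPKM in ZsGreen-negative libraries. Every ZsGreen-positive value exceeded every ZsGreen-negative one (log2 fold change 0.83 ± 0.12, adjusted p = 0.000687). For PDK1, a kinase known to be induced in hypoxia, the values were 4.55, 6.18 and 5.63 FPKM in ZsGreen-positive and 5.30, 6.29 and 4.77 FPKM in ZsGreen-negative cells. These overlapped throughout, and the 95% confidence interval of the log2 difference ran from -0.34 to 0.34 (adjusted p = 0.998), so that it did not leave room for a change of the size seen in PDK2. PDK3 had 2.70 to 4.13 FPKM in ZsGreen-positive and 2.1 to 3.04 FPKM in ZsGreen-negative cells, with an interval from -0.16 to 0.67 (adjusted p = 0.254). PDK4, untested, was at 1.11, 0.713 and 0.547 FPKM in ZsGreen-positive cells and at 0.954, 0.976 and 0.848 FPKM in ZsGreen-negative cells. It was the lowest of the kinases in every library.

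PDP1, the calcium-stimulated phosphatase, was listed highest of the 36 genes in 6 of 6 libraries, but whether fragments of another transcript were counted under this symbol could not be checked, so the level is uncertain. It had 425, 453 and 422 FPKM in ZsGreen-positive cells and 528, 537 and 531 FPKM in ZsGreen-negative cells. Its decrease was small beside the level (log2 fold change -0.30 ± 0.053, adjusted p = 0.00233) and was no longer called after rescaling to a common FPKM sum (-0.12, adjusted p = 0.299). PDP2 was 2.76 to 4.32 FPKM in ZsGreen-positive and 2.69 to 3.28 FPKM in ZsGreen-negative libraries and did not pass (interval -0.22 to 0.54, adjusted p = 0.431).

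In the mitochondrial cycle itself, 10 of 12 genes were higher in ZsGreen-positive cells, OGDH was lower and SUCLA2 did not pass, with a median log2 fold change of 0.50. IDH2, the mitochondrial NADP-dependent isocitrate dehydrogenase, led the group. It had 36.2, 32.1 and 25.3 FPKM in ZsGreen-positive libraries 1 to 3, against 7.18, 6.25 and 6.31 FPKM in ZsGreen-negative libraries 1 to 3. The lowest ZsGreen-positive library was far above the highest ZsGreen-negative one, and the means were 4.74-fold apart (log2 fold change 2.07 ± 0.14, adjusted p = 1.7e-05). FH, the fumarase that hydrates fumarate to malate, was next, at 61.6, 55.1 and 53.5 FPKM in ZsGreen-positive cells and 17.2, 20.9 and 20.3 FPKM in ZsGreen-negative cells. The gap between the groups was several times the range within either, for a 2.91-fold ratio (1.5 ± 0.095 on the log2 scale, adjusted p = 1.46e-05).

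The RefSeq promoter window of FH, the changed gene of the mitochondrial cycle with the largest fold change after IDH2, is shown around the annotated start, 5′ to 3′ (GRCh38.p14, chr1:241519706-241520005, minus strand). Capitals mark the CCAAT box, here found as its reverse complement, beginning at positions -105 and -69 (position 1 is the first base of the annotated transcript, and there is no position 0).
FH: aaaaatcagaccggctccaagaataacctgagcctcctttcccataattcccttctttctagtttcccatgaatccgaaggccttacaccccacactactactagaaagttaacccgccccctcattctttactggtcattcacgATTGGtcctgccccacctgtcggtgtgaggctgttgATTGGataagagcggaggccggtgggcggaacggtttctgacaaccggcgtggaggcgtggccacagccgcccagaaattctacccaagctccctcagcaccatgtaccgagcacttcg

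Succinyl-CoA ligase is built from the shared subunit SUCLG1 and either SUCLG2, which gives GTP specificity, or SUCLA2, which gives ATP specificity. SUCLG2 was measured at 47.2, 44.6 and 44.8 FPKM in ZsGreen-positive and 24.0, 20.5 and 22.9 FPKM in ZsGreen-negative libraries. The ZsGreen-positive libraries lay close together at 2.02 times the ZsGreen-negative mean (log2 fold change 0.99 ± 0.077, adjusted p = 3.64e-05). SUCLA2 had 22.2, 25.0 and 29 FPKM in ZsGreen-positive and 21.9, 21.5 and 21.4 FPKM in ZsGreen-negative libraries. These groups were separate only by a narrow margin, and the log2 fold change of 0.22 (interval -0.02 to 0.45) did not pass (adjusted p = 0.101), though it did without ZsGreen-positive library 1 (0.0175) and after rescaling to a common sum (0.0386). SUCLG1 averaged 50.3 ± 7.42 FPKM in ZsGreen-positive and 35.3 ± 0.242 FPKM in ZsGreen-negative cells (SD, n = 3 each; log2 fold change 0.49, adjusted p = 0.00476, limma).

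MDH2, the mitochondrial malate dehydrogenase that closes the cycle, had 82.5, 70.9 and 70.3 FPKM in ZsGreen-positive and 45.5, 46.2 and 45.2 FPKM in ZsGreen-negative cells. All ZsGreen-positive values lay higher (0.69 ± 0.076 on the log2 scale, adjusted p = 0.000197). The NAD-dependent isocitrate dehydrogenase is assembled from IDH3A, IDH3B and IDH3G, and all 3 subunits were higher, by 0.50, 0.59 and 0.47 on the log2 scale (adjusted p = 0.00157, 0.000204 and 0.0012). IDH3B, the most abundant of them, was at 94.4, 83.6 and 92.3 FPKM in ZsGreen-positive and 57.9, 60.0 and 60.3 FPKM in ZsGreen-negative libraries. Its groups did not overlap, and neither did those of IDH3A or IDH3G. CS, the citrate synthase, averaged 34.6 ± 3.88 FPKM in ZsGreen-positive and 25.2 ± 1.40 FPKM in ZsGreen-negative cells (SD, n = 3 each; log2 fold change 0.44, adjusted p = 0.00591, limma).

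The 2-oxoglutarate dehydrogenase complex was split. OGDH, its decarboxylating subunit, had 11.9, 18.1 and 12.5 FPKM in ZsGreen-positive cells, against 21.6, 21.1 and 21.3 FPKM in ZsGreen-negative cells. ZsGreen-positive library 2 stood above its 2 partners but below every ZsGreen-negative library (log2 fold change -0.58 ± 0.15, adjusted p = 0.0111). Rescaling to a common FPKM sum ended this call (-0.39, adjusted p = 0.104). DLST, the succinyltransferase core, was higher, at 18.3, 21.7 and 25.5 FPKM in ZsGreen-positive and 13.9, 15.6 and 15.2 FPKM in ZsGreen-negative libraries. Its groups were apart as well (0.51 ± 0.12, adjusted p = 0.00936), as were those of DLD, the dehydrogenase the complex shares with pyruvate dehydrogenase.

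Among the cytosolic partners, malic enzymes and citrate lyase, 3 of 5 tested genes were lower and 2 higher, with a median log2 fold change of -0.65. ME1, the cytosolic NADP-dependent malic enzyme, had the lowest log2 fold change of the 34 tested genes. It stood at 11.9, 10.6 and 11.3 FPKM in ZsGreen-positive libraries 1 to 3, against 51.1, 51.3 and 53.4 FPKM in ZsGreen-negative libraries 1 to 3. Both groups were tight and far apart, the ZsGreen-negative mean being 4.6 times the ZsGreen-positive one (log2 fold change -2.11 ± 0.070, adjusted p = 1.15e-06). IDH1, the NADP-dependent isocitrate dehydrogenase of cytosol and peroxisomes, had 117, 119 and 114 FPKM in ZsGreen-positive and 246, 254 and 257 FPKM in ZsGreen-negative cells. The ZsGreen-positive values were all below 0.5 of the ZsGreen-negative ones (-1.11 ± 0.051 on the log2 scale, adjusted p = 3.93e-06). ACLY, which cleaves exported citrate into acetyl-CoA and oxaloacetate, was at 106, 109 and 116 FPKM in ZsGreen-positive and 176, 175 and 171 FPKM in ZsGreen-negative libraries. There was no overlap (log2 fold change -0.65 ± 0.056, adjusted p = 5.99e-05).

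The promoter windows of ME1 and IDH1, the genes of this set that fell most, are shown 5′ to 3′ on the same build, chr6:83431002-83431301 and chr2:208255022-208255321, both on the minus strand. Capitals mark TGACNNNGC, the core of the antioxidant response element bound by NRF2, and the CCAAT box, on either strand. In ME1 the first motif begins at position -137 relative to the start and again, on the opposite strand, at position 12. In IDH1 it begins at position -143, followed by CCAAT boxes on the opposite strand at positions -121 and -107. The table holds a further IDH1 window, chr2:208254409-208254708, in which neither motif was found and which is not printed.
ME1: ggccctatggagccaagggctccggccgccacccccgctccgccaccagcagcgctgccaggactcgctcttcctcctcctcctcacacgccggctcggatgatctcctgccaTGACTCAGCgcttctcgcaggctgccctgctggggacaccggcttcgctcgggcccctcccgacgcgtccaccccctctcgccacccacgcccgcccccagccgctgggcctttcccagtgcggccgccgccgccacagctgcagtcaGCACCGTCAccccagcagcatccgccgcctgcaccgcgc
IDH1: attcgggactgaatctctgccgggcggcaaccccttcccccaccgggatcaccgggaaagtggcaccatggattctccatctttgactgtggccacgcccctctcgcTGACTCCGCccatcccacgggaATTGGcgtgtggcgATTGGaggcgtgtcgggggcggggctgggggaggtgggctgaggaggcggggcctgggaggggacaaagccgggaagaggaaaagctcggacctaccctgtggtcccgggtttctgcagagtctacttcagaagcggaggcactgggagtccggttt

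ME2, the mitochondrial malic enzyme that uses NAD, was higher where ME1 was lower. It had 14.2, 13.6 and 10.7 FPKM in ZsGreen-positive and 7.77, 7.07 and 7.33 FPKM in ZsGreen-negative cells. All ZsGreen-positive values exceeded the ZsGreen-negative ones (log2 fold change 0.71 ± 0.12, adjusted p = 0.00164). MDH1, the cytosolic malate dehydrogenase, averaged 167 ± 6.52 FPKM in ZsGreen-positive and 113 ± 6.36 FPKM in ZsGreen-negative cells (SD, n = 3 each; log2 fold change 0.56, adjusted p = 0.000234, limma). ME3, the mitochondrial NADP-dependent malic enzyme, was hardly detected, at 0.0799, 0.346 and 0 FPKM in ZsGreen-positive and 0.0489, 0 and 0 FPKM in ZsGreen-negative libraries, and no change was read from these values.

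Seen as shares of summed FPKM within each enzyme family, the NADP-dependent isocitrate dehydrogenases and the malic enzymes were divided differently between compartments in the 2 groups. The mitochondrial NAD-dependent subunits IDH3A, IDH3B and IDH3G were not counted in these shares. The shares describe the same values and were not tested. IDH2 made up 23.6%, 21.2% and 18.2% of IDH1 plus IDH2 in ZsGreen-positive libraries, against 2.83%, 2.40% and 2.40% in ZsGreen-negative libraries. The sum of IDH1 and IDH2 was nonetheless lower, at 148 ± 7.88 FPKM in ZsGreen-positive and 259 ± 4.77 FPKM in ZsGreen-negative cells (SD, n = 3 each). Of the malic enzymes, ME1 held 45.5%, 43.2% and 51.5% in ZsGreen-positive libraries and 86.7%, 87.9% and 87.9% in ZsGreen-negative libraries. Their sum was 24.3 ± 2.13 FPKM in ZsGreen-positive and 59.4 ± 1.24 FPKM in ZsGreen-negative cells (SD, n = 3 each). MDH2 held 30.9% ± 2.23 of the malate dehydrogenases in ZsGreen-positive and 28.8% ± 1.11 in ZsGreen-negative cells (SD, n = 3 each), with overlapping values, while the sum was higher, 242 ± 8.58 against 159 ± 6.57 FPKM. Both malate dehydrogenases were thus higher together.

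Of the kinases, PDK2 held 53.4%, 46.0% and 47.0% of the family in ZsGreen-positive and 30.1%, 33.9% and 38.8% in ZsGreen-negative libraries. PDK1 held 29.4% ± 4.24 in ZsGreen-positive and 39.9% ± 4.37 in ZsGreen-negative cells (SD, n = 3 each), so that the most abundant kinase was PDK2 in every ZsGreen-positive library and PDK1 in ZsGreen-negative libraries 1 and 2. SUCLG2 held 68.0%, 64.1% and 60.7% of SUCLA2 plus SUCLG2 in ZsGreen-positive and 52.4%, 48.8% and 51.8% in ZsGreen-negative libraries. GOT2 held 44.4% ± 0.478 of the aspartate aminotransferases in ZsGreen-positive and 37.9% ± 1.27 in ZsGreen-negative cells (SD, n = 3 each). In each of these families the shares named did not overlap between the groups.

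**Figure D3:**
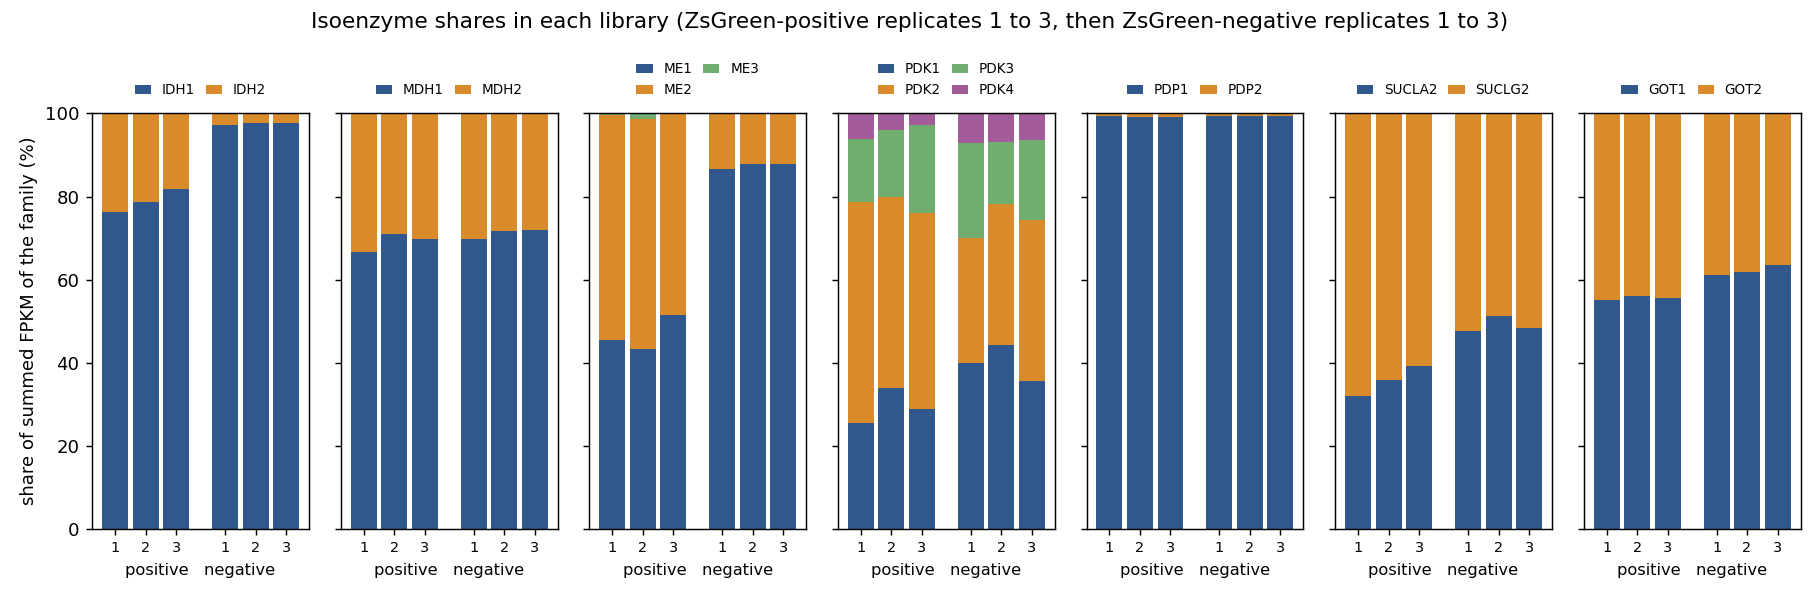
Share of each isoenzyme (%) in the summed FPKM of its family, 1 stacked bar per library, with ZsGreen-positive libraries 1 to 3 left of ZsGreen-negative libraries 1 to 3 in each panel. IDH2 takes 18.2% to 23.6% of IDH1 plus IDH2 in ZsGreen-positive and 2.40% to 2.83% in ZsGreen-negative libraries. ME2 takes a larger share where ME1 is lower, while the shares of the malate dehydrogenases overlap between the groups.

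Oxaloacetate is replenished by PC, the mitochondrial pyruvate carboxylase, and drawn off by PCK2, the mitochondrial phosphoenolpyruvate carboxykinase. PCK2 had 21.0, 21.1 and 26.1 FPKM in ZsGreen-positive and 12.8, 14.4 and 13.3 FPKM in ZsGreen-negative libraries. It was higher in every ZsGreen-positive library (log2 fold change 0.70 ± 0.11, adjusted p = 0.000912). PC had 5.01, 3.78 and 6.26 FPKM in ZsGreen-positive and 3.78, 4.07 and 4.33 FPKM in ZsGreen-negative libraries. These overlapped, ZsGreen-positive library 2 lying among the ZsGreen-negative ones, and the log2 difference of 0.23 (interval -0.16 to 0.62) did not pass (adjusted p = 0.265), although it did without that library (0.0376).

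The 5 genes of glutamate and glutamine moved little, with GOT2 higher, GLUD1 and GLUL lower and GOT1 and GPT2 not passing, and none of them differed 1.5-fold. GOT2, the mitochondrial aspartate aminotransferase of the malate-aspartate shuttle, had 59.1, 53.8 and 60.4 FPKM in ZsGreen-positive and 39.7, 41.4 and 39.1 FPKM in ZsGreen-negative cells. The groups were apart (log2 fold change 0.52 ± 0.067, adjusted p = 0.000466). GOT1, its cytosolic counterpart, had 72.6, 68.7 and 75.4 FPKM in ZsGreen-positive and 62.4, 66.7 and 68.2 FPKM in ZsGreen-negative cells. The values came close without overlapping, and the interval of the log2 difference was -0.02 to 0.28 (adjusted p = 0.113), while after rescaling to a common sum GOT1 passed as higher (0.0115).

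GLUL, the glutamine synthetase, stood at 30.7, 25.5 and 28.9 FPKM in ZsGreen-positive and 36.4, 37.2 and 35.7 FPKM in ZsGreen-negative libraries. All ZsGreen-positive values were lower (log2 fold change -0.35 ± 0.081, adjusted p = 0.00741), though the gene was no longer called after rescaling to a common sum (0.0735). GLUD1, the glutamate dehydrogenase, had 56.8, 61.0 and 67.1 FPKM in ZsGreen-positive and 72.1, 70.7 and 73.3 FPKM in ZsGreen-negative libraries. Its small difference (-0.23 ± 0.073, adjusted p = 0.0304) was lost without ZsGreen-positive library 2 (0.0538), without ZsGreen-negative library 1, 2 or 3 (0.0919, 0.0774 and 0.107) and after rescaling (0.723), and reads may be shared with its near-identical copy GLUD2. GPT2, the mitochondrial alanine aminotransferase, had 14.3 to 16.1 FPKM in ZsGreen-positive and 17.3 to 17.9 FPKM in ZsGreen-negative libraries. It did not pass (log2 difference -0.18, adjusted p = 0.0747), but passed without ZsGreen-positive library 1 (0.0466), after quantile normalization (0.0433) and with equal library medians (0.0299).

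Spread between libraries was greater in the ZsGreen-positive group. The median coefficient of variation of the 34 genes was 8.80% in ZsGreen-positive and 2.83% in ZsGreen-negative libraries, and 28 of the 34 varied more in ZsGreen-positive libraries. The same held over all tested genes, with medians of 15.1% in ZsGreen-positive and 5.48% in ZsGreen-negative libraries.

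Genes around the 36 were described through 5 lists, from each of which the 3 tested genes with the largest absolute log2 fold change were named. Of 19 tested other genes of the cycle, of pyruvate entry and of glutamine use, 8 were higher and 3 lower, with a median log2 fold change of 0.27. That is 42.1% higher and 15.8% lower, beside 29.4% and 30.0% of all tested genes. Without ZsGreen-negative library 1, 5 were higher. ACSS2, which makes acetyl-CoA from acetate in the cytosol, was 18.7 ± 3.06 FPKM in ZsGreen-positive and 79.3 ± 2.36 FPKM in ZsGreen-negative cells (SD, n = 3 each; log2 fold change -2.04, adjusted p = 9.14e-06, limma). OGDHL, a relative of OGDH, was higher where OGDH was lower, at 5.79, 5.47 and 3.38 FPKM in ZsGreen-positive and 0.844, 0.952 and 0.732 FPKM in ZsGreen-negative libraries. All ZsGreen-positive values exceeded the ZsGreen-negative ones (log2 fold change 1.65 ± 0.20, adjusted p = 0.000305), but its FPKM remained below that of OGDH in each library. D2HGDH, which oxidises D-2-hydroxyglutarate to 2-oxoglutarate, rose by 1.58 on the log2 scale (adjusted p = 2.79e-05).

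A further 2 genes of that list were picked after their values were seen, and the other subunits of their complexes are given beside them. MPC1, a subunit of the mitochondrial pyruvate carrier, averaged 17.1 ± 0.890 FPKM in ZsGreen-positive and 41.2 ± 0.175 FPKM in ZsGreen-negative cells (SD, n = 3 each; log2 fold change -1.22, adjusted p = 7.44e-06, limma). MPC2, the other subunit of the carrier, was lower by less (-0.42, adjusted p = 0.00882), and was not called after rescaling to a common FPKM sum (0.111). The fall of MPC1 contrasts with the rise of 4 pyruvate dehydrogenase subunits. SDHA, the flavoprotein of succinate dehydrogenase, averaged 54.7 ± 5.62 FPKM in ZsGreen-positive and 21.2 ± 1.51 FPKM in ZsGreen-negative cells (SD, n = 3 each; log2 fold change 1.33, adjusted p = 2.62e-05, limma). The other subunits changed less. SDHB was higher by 0.57 and SDHD by 0.26 (adjusted p = 0.000101 and 0.0191), and SDHC did not pass (0.27, adjusted p = 0.231). SDHD lost its call without ZsGreen-negative library 1 or 2 (0.0782 and 0.0619) and after quantile normalization (0.0566).

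Carriers of cycle intermediates, glutamate and glutamine passed in 11 of 11 tested genes, 5 of them higher and 6 lower (median -0.30), beside 59.4% passing among all tested genes. The 5 higher were all mitochondrial SLC25 carriers. Lower were SLC1A5, SLC38A1, SLC38A2 and SLC7A5 (log2 fold change -0.89, -1.61, -1.31 and -1.18), SLC7A11, and SLC25A1 of the mitochondrial carriers. SLC25A1 (-0.30, adjusted p = 0.0306, limma) was not called after rescaling to a common FPKM sum (0.208). The 5 higher carriers became 2 without ZsGreen-negative library 1, and 3 without ZsGreen-positive library 1, ZsGreen-positive library 2 or ZsGreen-negative library 2. SLC25A10, the mitochondrial dicarboxylate carrier, had 49.5, 51.2 and 51.9 FPKM in ZsGreen-positive and 8.0, 5.78 and 7.28 FPKM in ZsGreen-negative libraries. That was a 7.24-fold ratio without overlap (log2 fold change 2.70 ± 0.11, adjusted p = 2.53e-06). SLC25A11, the 2-oxoglutarate and malate carrier, also rose (1.96, adjusted p = 1.14e-05), whereas SLC7A11, the cystine and glutamate exchanger of the plasma membrane, fell (-1.82, adjusted p = 1.68e-05).

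Enzymes that use the amide nitrogen of glutamine were higher in 4 and lower in 2 of 10 tested genes (median 0.14). These shares, 40% and 20%, stand beside 29.4% higher and 30.0% lower among all tested genes. PFAS, of purine synthesis, averaged 8.88 FPKM in ZsGreen-positive and 1.88 FPKM in ZsGreen-negative cells (log2 fold change 1.78, adjusted p = 9.72e-06). GFPT1, the first enzyme of the hexosamine pathway, fell (-1.67, adjusted p = 8.61e-06), as did ASNS, the asparagine synthetase, at 81.9 ± 2.07 FPKM in ZsGreen-positive and 216 ± 7.78 FPKM in ZsGreen-negative cells (SD, n = 3 each; -1.39, adjusted p = 2.12e-06, limma). Amino acid synthesis from glutamate gave 6 higher and 3 lower of 10 tested genes (median 0.44). That is 60% and 30%, beside 29.4% higher and 30.0% lower among all tested genes. PHGDH and PSAT1, the first enzymes of serine synthesis, fell by 1.60 and 1.28 on the log2 scale (adjusted p = 6.1e-06 and 8.65e-06), while ALDH4A1, of proline breakdown, rose by 1.13 (adjusted p = 0.0012).

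Other fates of pyruvate were represented by 5 tested genes, 2 higher and 3 lower (median -0.16), beside 29.4% higher and 30.0% lower among all tested genes. LDHB, the lactate dehydrogenase subunit of oxidative tissues, had 1494, 1405 and 1448 FPKM in ZsGreen-positive and 815, 830.2 and 835 FPKM in ZsGreen-negative libraries. LDHA, the subunit typical of glycolytic tissues, had 319, 276 and 291 FPKM in ZsGreen-positive and 419, 428 and 417 FPKM in ZsGreen-negative libraries. The subunits moved in opposite directions without overlap, LDHB by 0.81 and LDHA by -0.51 on the log2 scale (adjusted p = 1.95e-05 and 0.000436). SLC16A1, a monocarboxylate transporter for lactate and pyruvate, fell (-1.08, adjusted p = 2.48e-05). The other monocarboxylate transporter of the list, SLC16A3, was higher, at means of 132 FPKM in ZsGreen-positive and 104 FPKM in ZsGreen-negative cells (0.34, adjusted p = 0.000848). PKM, the pyruvate kinase, was lower by a small margin (-0.16, adjusted p = 0.0357), and its sign turned after rescaling to a common FPKM sum (0.014, adjusted p = 0.855). Its call was also lost without ZsGreen-positive library 3 (adjusted p = 0.061) and without ZsGreen-negative library 1, 2 or 3 (0.128, 0.135 and 0.105).

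**Figure D4:**
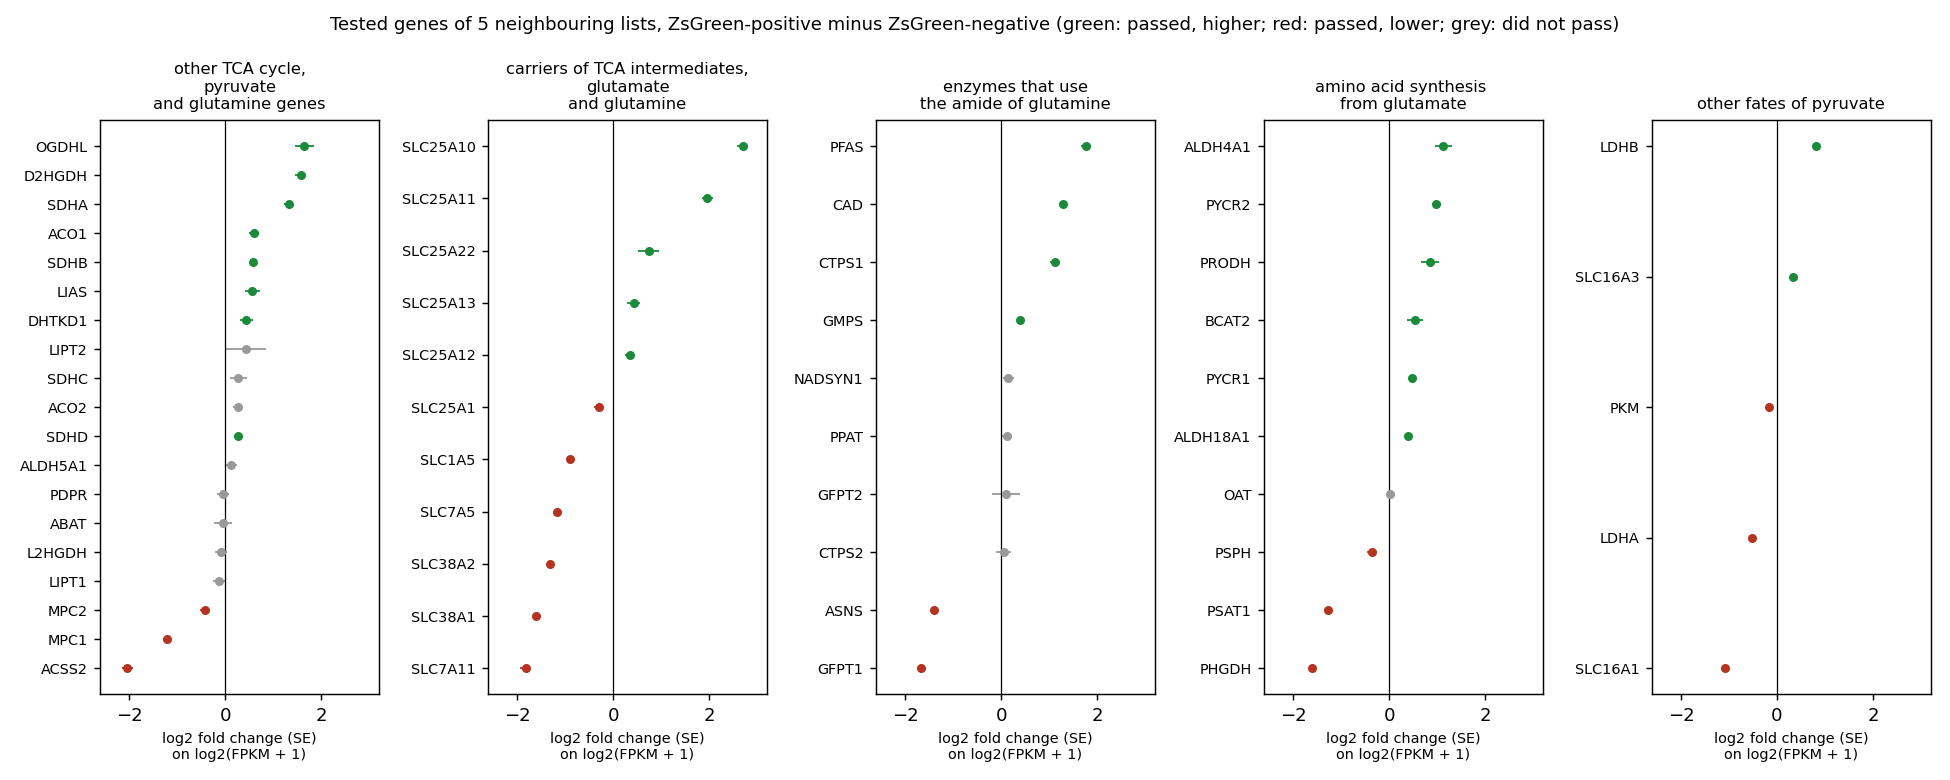
Log2 fold change, ZsGreen-positive minus ZsGreen-negative, on the log2(FPKM + 1) scale with SE bars, for the tested genes of the 5 neighbouring lists (green, passed as higher; red, passed as lower; grey, did not pass). SLC25A10 lies furthest up at 2.70 and ACSS2 furthest down at -2.04, and each list holds genes of both directions.

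Promoter windows of 33 of the 36 genes were in the RefSeq table, 46 windows in all; PDP1, OGDH and GPT2 had none. CCAAT, searched on both strands like every motif here, was in 28 of the 46 windows and in 34.6% of all 35116 windows. TGACNNNGC was in 5 of the 46 windows, of GOT2, IDH1, IDH3G, ME1 and SUCLG1, and in 13.3% of all windows. Of those 5 genes 2 were lower and 3 higher in ZsGreen-positive cells. CACGTG, bound by MYC and other E-box factors, was in 5 of the 46 windows and in 7.26% of all, and ACGTG, the core of the hypoxia response element, which overlaps it, in 13 of the 46 and 21.4% of all. TNAAGGTCA, CGCATGCG, TTTGGCGC and TTTCGCGC, motifs of the estrogen-related receptors, of NRF1 and of E2F factors, were in none of the 46 windows and in 0.951%, 2.02%, 0.652% and 0.515% of all windows. A match describes these letters only.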

How the data were processed

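Processed FPKM tables of 3 ZsGreen-positive and 3 ZsGreen-negative libraries were used. Per the labels' protocols, RNA was extracted with TRIzol and miRNeasy Micro and the sequencing libraries were prepared by TruSeq Stranded mRNA. The submitters' processing notes name TopHat2 2.1.1, Bowtie2 2.2.8, SAMtools 0.1.18, Cuffdiff 2.2.1 and build hg19, and the FPKM values were deposited by the authors. The annotation and strand setting were not stated in the labels used here. FPKM is normalized to depth and length, so a few strongly expressed genes can shift all others, and rescaling was tried for that reason.

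From these values, genes with a mean of at least 1 FPKM over the 6 libraries were tested on log2(FPKM + 1) with limma 3.58.1 in R 4.3.3 (linear model of group, eBayes with trend), adjusted by Benjamini-Hochberg over 12213 genes at 0.05; the procedure was tested on simulated data. The 36 genes were matched by symbol. Members with a passing change of at least 1.5-fold were given library by library, and others were added after their values were seen; in neighbouring lists the 3 largest changes were named. Not every gene of these lists is reported here. The members and lists were chosen with earlier results of these data known. Depth was estimated from FPKM steps of 2137 single-transcript genes, with lengths from GENCODE, in ZsGreen-positive library 1 and the ZsGreen-negative libraries. For ZsGreen-positive libraries 2 and 3 it was derived from library 1 through the commonest ratio of low FPKM values near equality. By construction these depths could not lie far from that of library 1, and all depths are estimates. There are no read counts, so no counting intervals are given. Promoter windows came from RefSeq (GRCh38.p14), a build other than that of the files.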

Additional observations from a re-analysis of the deposited data

How the results depend on the processing

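Under 16 alternatives, 22 of the 27 passing members passed in the same direction each time. In 1 of these alternatives ZsGreen-positive library 1 stood alone, so that the spread came from the tighter ZsGreen-negative libraries and was assumed for it; its 8850 passing genes are no sign of stability. The other 5 were PDHX, lost under 7 alternatives, GLUD1, lost under 6, and PDP1, OGDH and GLUL, each lost under rescaling to a common FPKM sum; rescaling left 3 members lower and moved the median log2 fold change of the members to 0.62. That median was 0.40 with a pseudocount of 5 and 0.37 with ZsGreen-positive library 1 as the only positive library, where the PDP2 share difference was 0.0720 percentage points. Leaving out 1 library at a time gave 19 to 20 members higher, 6 to 8 lower and a median of 0.42 to 0.49. PDK1, which did not pass, changed sign under rescaling (0.14), with a pseudocount of 5 (8.33e-05) and among the fits without 1 library (-0.081 to 0.10), and PDP2 with ZsGreen-positive library 1 alone (-0.11). With a replicate block, 6915 genes passed, 19 members higher and 8 lower, 3 carriers higher instead of 5, and PKM did not pass (adjusted p = 0.112); the correlations of deviations of same-numbered libraries were -0.0211, -0.0302 and -0.0209, so the numbers gave no pairing. Of the neighbouring lists, 4 lost from 1 to 4 calls under some alternatives, and PKM turned sign under rescaling and lost its call without the eBayes trend (adjusted p = 0.0935). Low values limit statements on PDK4 and ME3, which were below 1 FPKM on average. The filter left both out, except in the fit without a filter on low values. The causes of these shifts were not tested.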
